A study of Mus musculus with 9 samples.

Results

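The data describe how dimethyl sulfate (DMS) marked the 5′ leaders of 2 mouse mRNAs that encode ubiquitin ligases, Ube4b and Rnf10, in embryonic stem cells and after the same leaders were refolded outside the cell. The members are all readings whose transcript is the RefSeq mRNA of Ube4b or of Rnf10. They comprise 6 amplicons of 161 in the series, 1274 nucleotide readings of 32967 and 1024 distinct transcript positions of 27682, and the series covers 69 transcripts. Of the 675 readings at A or C, 671 were tested and 4 had no count in any sample. RefSeq places Ube4b at chr4:149328416-149428161 and Rnf10 at chr5:115241770-115272921 of GRCm38.p6. The positions below count along the transcript, as deposited. All read positions are called the leader here. The start codon was not determined, so positions downstream of an AUG may be coding sequence.

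E14 cells are an established line of mouse embryonic stem cells. There were 3 groups of 3 samples. The ATP-depleted cells spent 10 min in glucose-free medium with 10 mM 2-deoxyglucose, which blocks glycolysis, and 10 mM sodium azide, which blocks respiration, and both agents stayed in all later media. The untreated cells were handled in the same way but had no such incubation and neither agent. Both in-cell groups were then buffered with 250 mM bicine and exposed to 1.6% DMS at 37 °C, which lasted 6 min. The third group is RNA refolded in vitro, and how it was folded and modified is not given in the sources used here. The labels describe independent samples per condition. The p-values rest on the spread among replicates within groups, which limma estimated over all 9 samples together and across readings. No sample labelled as lacking DMS was analysed here.

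Ubiquitin ligases attach the small protein ubiquitin to their targets. Ube4b carries a U-box and is known as an E4 factor, which lengthens ubiquitin chains that are already attached, and Rnf10 carries a RING finger, the domain of the largest family of E3 ligases. The 5′ leader of an mRNA is the stretch that the small ribosomal subunit scans before the start codon, and structure or an early AUG within it can change how often the protein is made. DMS methylates A and C where the base-pairing face is free, and each methylated base appears as a mutation in the amplicon reads. A high value therefore marks an accessible A or C, while a low value marks one that is paired or bound. The unit is CPM, the counts scaled to the same total (1e+06) within each amplicon, so a value gives a nucleotide's share of its amplicon's mutations, and a rise at one place goes with a fall elsewhere.

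The Ube4b amplicons run from 207 to 457, 395 to 645 and 542 to 792, and were read from position 224 to 771 in all (548 nt, 64.2% GC, 43 CpG). The Rnf10 amplicons run from 15 to 265, 107 to 357 and 275 to 525, and were read from 34 to 509 (476 nt, 73.5% GC, 56 CpG), with C alone making up 46.0%. The median amplicon of the series had 57.9% GC. Predicted folding energy was between -46.9 and -28.9 kcal/mol per 100 nt for Ube4b and between -48.6 and -28.7 for Rnf10, against a series median of -30.8. The strongest predicted structure lay in the first amplicon of each gene.

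The sequences on which the results turn are these, 5′ to 3′ in the DNA letters of the deposited table. The first 6 show each AUG of both leaders in capitals, with the bases around it that the scanning ribosome reads.
Ube4b AUG at 595: cctctgactATGcaattctga
Ube4b AUG at 727: aggaaagcgATGgaggagctg
Rnf10 AUG at 360: caaggaaaaATGtcgccatga
Rnf10 AUG at 368: aatgtcgccATGaaggccgag
Rnf10 AUG at 419: ctgaacgccATGagcctgggt
Rnf10 AUG at 483: ccccctttgATGccgcagagc
The next set shows, in capitals, a selection of the nucleotides whose changes are described below.
Ube4b C540: gcggtgcgagCggccgaagcc
Ube4b A272: gggggcatccAgtgtgcagtg
Ube4b C365: gtcaccgccaCgaagacacgg
Ube4b C649: tagataccttCcactcttcct
Rnf10 A136: gcggcgggagAgcgtgtccgg
Rnf10 C213: ccgccaggccCggcccggacc
Rnf10 C190: ccctttccccCgcagcctctg
Rnf10 C305: ccccacaaccCcaccttgccg
The last set shows the longest simple stretches, a run of 7 A in Ube4b at 336 to 342 and a CCU repeat in Rnf10 at 236 to 256.
Ube4b run of A: cgggagAAAAAAAcgcagc
Rnf10 CCU repeat: CCTCCTCCTCCTCCTCCTCCT

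Depth differed between the amplicons. The 9 samples held 5743965 to 12616275 counts each over all amplicons, and the median library of one amplicon in one sample held 40815. The Ube4b libraries held 18506 to 237217 counts. Rnf10 107 to 357 and 275 to 525 held 41699 to 174366, but Rnf10 15 to 265 held only 2484 to 12136. Its untreated replicates also resembled each other less. The mean correlation of A and C values between untreated replicates was 0.541 in it, with a lowest of 0.358, against 0.914 to 0.970 in the other 5 amplicons. Between ATP-depleted replicates that mean was 0.883 in it and between refolded replicates 0.853, which lies above the 0.834 of refolded Rnf10 275 to 525. The strongest reading of Rnf10 15 to 265 was C246, the last position read. C246 stood at 82736 and 65885 CPM in untreated replicates 1 and 2, at 37974 to 83233 in the ATP-depleted samples and at 37439 to 83211 after refolding, but untreated replicate 3 had 0 counts there. Without C246 the mean correlation between untreated replicates was 0.729. In the overlapping amplicon the same C read 4333 to 6044 CPM in all 9 samples. C243 averaged 20539 CPM over the 9 samples in Rnf10 15 to 265 and 1376 CPM in the overlapping amplicon. Values from Rnf10 15 to 265 are therefore given with its name throughout, and counts are given without it where that matters.

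A was the most marked base in both leaders. The median A of Ube4b read 9905 ± 352 CPM (SD, n = 3) in untreated cells, 10048 ± 295 in ATP-depleted cells and 11075 ± 273 after refolding. The median C of Ube4b read 4751 ± 41, 4565 ± 164 and 3443 ± 72 in the same order. In Rnf10 the median A read 7924 ± 272, 7906 ± 189 and 9203 ± 395, and the median C read 5191 ± 114, 5274 ± 176 and 4783 ± 12. In each leader the typical A was higher and the typical C lower in every refolded sample than in any in-cell sample. Over all genes the median A read 8589 ± 425 CPM in untreated cells and 9298 ± 185 after refolding, and the median C read 4829 ± 48 and 4114 ± 54.

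Refolded RNA differed from untreated cells at many nucleotides of the Ube4b leader and at fewer of the Rnf10 leader. Refolding cannot be told apart here from the folding and DMS conditions of that group, which are not given. A rise or fall below means a higher or lower value in refolded RNA. In limma, at an adjusted p under 0.05 over all 16178 tested A and C of the series, 76 of 304 Ube4b readings (25.0%) and 36 of 367 Rnf10 readings (9.81%) differed between refolded RNA and untreated cells, beside 16.3% over all genes. In Ube4b, 28 rose and 48 fell. In Rnf10, 24 rose and 12 fell. Over all genes 8.08% rose and 8.18% fell. Ube4b ranked 9 of 69 transcripts by share called and Rnf10 ranked 44, around a transcript median of 13.7%. The difference between the genes was not tested, and the part that depth plays in it was not tested either. When each amplicon was divided by its mean A and C signal, the Ube4b split was 25 higher and 54 lower, but the Rnf10 split turned to 13 higher and 22 lower, so the direction of the Rnf10 majority depends on scaling. The direction of the Ube4b majority depends on the filter. Among nucleotides whose mean reached the median, 21 of 150 Ube4b readings rose and 9 fell (20.0% called, beside 15.4% over all genes), and 15 of 147 Rnf10 readings rose and 5 fell (13.6%). That mean includes the refolded samples, so a reading low in cells can pass because it is high after refolding. The filter therefore cannot settle the direction, and its part in the split was not tested. The fit without untreated replicate 3 called 33 readings in Ube4b (10.9%) and 11 in Rnf10 (3.0%), beside 9.35% over all genes. Without untreated replicate 1 these counts were 45 (14.8%) and 13 (3.54%), beside 10.9%, and without untreated replicate 2 they were 38 (12.5%) and 12 (3.27%), beside 8.62%. With Rnf10 15 to 265 left out, 31 of 249 Rnf10 readings were called (12.4%), beside 16.4% over all genes.

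The Ube4b falls were mostly at C. Of its 187 tested C, 43 fell and 14 rose, and of its 117 A, 5 fell and 14 rose. Over all genes, 11.2% of C fell and 6.7% rose, while 4.05% of A fell and 9.96% rose. In Rnf10, 16 of 300 C rose and 11 fell, and 8 of 67 A rose and 1 fell. Among Ube4b A and C that were paired in the predicted minimum-energy fold, 34 of 177 fell and 16 rose, while among unpaired ones 14 of 127 fell and 12 rose. Over all genes, 10.5% of paired A and C fell and 6.86% rose, while 5.51% of unpaired ones fell and 9.46% rose. The Ube4b falls were thus 19.2% of its paired and 11.0% of its unpaired positions, both above the share over all genes. In Rnf10 the paired positions gave 13 rises and 3 falls of 168 (7.74% and 1.79%), and the unpaired ones 11 rises and 9 falls of 199 (5.53% and 4.52%). The size of the typical change was small in both genes. The median absolute log2 change was 0.24 in Ube4b and 0.17 in Rnf10, beside 0.27 over all genes.

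In Ube4b the single largest change was a rise at C540. C540 stood at 3637, 4979 and 4446 CPM in untreated cells, at 4834, 5820 and 4593 in ATP-depleted cells and at 15649, 15132 and 15997 after refolding. All refolded samples lay far above all in-cell samples, which overlapped each other. The rise was 3.58-fold between group means, or 1.32 ± 0.11 (SE) on the scale log2(CPM + 3197), with an adjusted p of 0.000469 in limma. The predicted fold pairs this C almost always, with an unpaired probability of 0.00669, and in refolded RNA it read above the median C and the median A of the leader.

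A272, near the 5′ side of the read region, behaved in a similar way. It stood at 11200, 9748 and 9860 CPM in untreated cells, at 10781, 10414 and 10475 in ATP-depleted cells and at 21805, 22349 and 22355 after refolding. The groups in cells overlapped and the refolded group did not touch them. The log2 rise was 0.92 ± 0.09 with a limma adjusted p of 0.000737. C348 and A490 rose by 0.97 ± 0.19 (limma adjusted p 0.0133) and 0.82 ± 0.13 (limma adjusted p 0.00518), and C348 missed the threshold when untreated replicate 2 was left out.

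The largest Ube4b fall was at C365. It stood at 12073, 14866 and 17991 CPM in untreated cells, at 18030, 18813 and 21980 in ATP-depleted cells and at 4627, 6240 and 6898 after refolding. Every refolded sample was below every in-cell sample, and the ATP-depleted samples lay just above the untreated ones. The refolded minus untreated change was -0.99 ± 0.15 (limma adjusted p 0.00521), and the refolded minus ATP-depleted change was -1.33 (limma adjusted p 0.00181). The ATP-depleted minus untreated difference of 0.34 had an unadjusted limma p of 0.0589.

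C649 lies in a stretch rich in U and C between both AUGs of Ube4b. It stood at 5947, 5145 and 4782 CPM in untreated cells, at 4494, 4956 and 4333 in ATP-depleted cells and at 1717, 1474 and 1654 after refolding. The refolded values were the lowest without overlap, a change of -0.82 ± 0.09 (limma adjusted p 0.00156). C481 and C393 fell by 0.89 and 0.82 on the same scale, with limma adjusted p of 0.00587 and 0.00421. At C393 the refolded samples read 810, 1567 and 851 CPM, from as few as 22 counts.

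The Rnf10 rises were led by A136 in the amplicon 107 to 357. It stood at 8549, 12628 and 9380 CPM in untreated cells, at 7471, 13119 and 9234 in ATP-depleted cells and at 21157, 30221 and 30447 after refolding. The in-cell groups overlapped and all refolded samples were higher. The rise was 2.68-fold between group means, or 1.18 ± 0.20 (limma adjusted p 0.00754). In Rnf10 15 to 265, where each sample had between 4 and 25 counts at this A, it differed by 0.30 (limma adjusted p 0.298).

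C213 lies in a G- and C-rich stretch of Rnf10. In the amplicon 107 to 357 it stood at 11141, 11069 and 10328 CPM in untreated cells, at 10811, 12240 and 9759 in ATP-depleted cells and at 20553, 24164 and 22139 after refolding. The refolded group was higher without overlap, by 0.86 ± 0.10 (limma adjusted p 0.00214). In Rnf10 15 to 265 the same C gave 0.03 (limma adjusted p 0.947), with untreated values of 28384, 16485 and 16865 that overlapped the refolded ones. C130 showed the same contrast, with 0.83 (limma adjusted p 0.00505) in the amplicon 107 to 357 and 0.07 (limma adjusted p 0.895) in the other, on 3 to 18 counts. C64, read in Rnf10 15 to 265 alone, rose by 0.91 ± 0.18 (limma adjusted p 0.0146) on 28 to 237 counts, a call lost when untreated replicate 2 was left out.

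C190, at the end of a run of C, led the Rnf10 falls that rested on a deep library. It stood at 7623, 11388 and 8735 CPM in untreated cells, at 9349, 12501 and 9180 in ATP-depleted cells and at 5426, 4466 and 4172 after refolding. The refolded samples were lowest without overlap, by -0.65 ± 0.15 (limma adjusted p 0.0223). In Rnf10 15 to 265 the change was -0.87 with a limma adjusted p of 0.0861, the same direction but not called. The call at C190 was lost without untreated replicate 2 or 3 and without refolded replicate 2 or 3. A166, C68 and C57, all in Rnf10 15 to 265, fell by 0.84, 0.56 and 0.51 with limma adjusted p of 0.042, 0.0349 and 0.0321. They lost their calls under 11, 9 and 8 of the alternatives run. Each lost its call without several single libraries, untreated replicate 3 among them. In the deeper amplicon A166 changed by -0.19 (limma adjusted p 0.254). Relative to ATP-depleted cells C68 was again called lower, by 0.71, but A166 and C57 were not called.

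**Figure D1:**
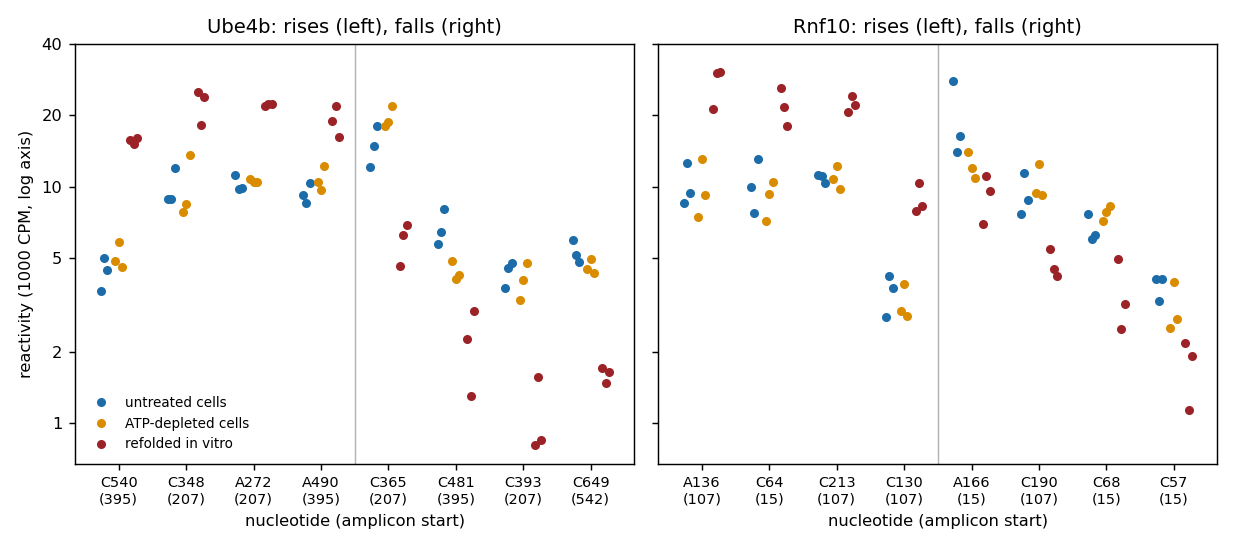
Reactivity in units of 1000 CPM on a log axis for the named nucleotides of Ube4b (left panel) and Rnf10 (right panel), one point per sample in 3 colours for untreated cells, ATP-depleted cells and RNA refolded in vitro, with the amplicon start in brackets. In each panel the refolded points lie above both in-cell groups at the 4 nucleotides on the left and below them at the 4 on the right. The nucleotides were chosen for not overlapping between refolded and untreated samples, so that separation is set by the choice. Rnf10 A166 and C57 were not called against ATP-depleted cells.

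**Figure D2:**
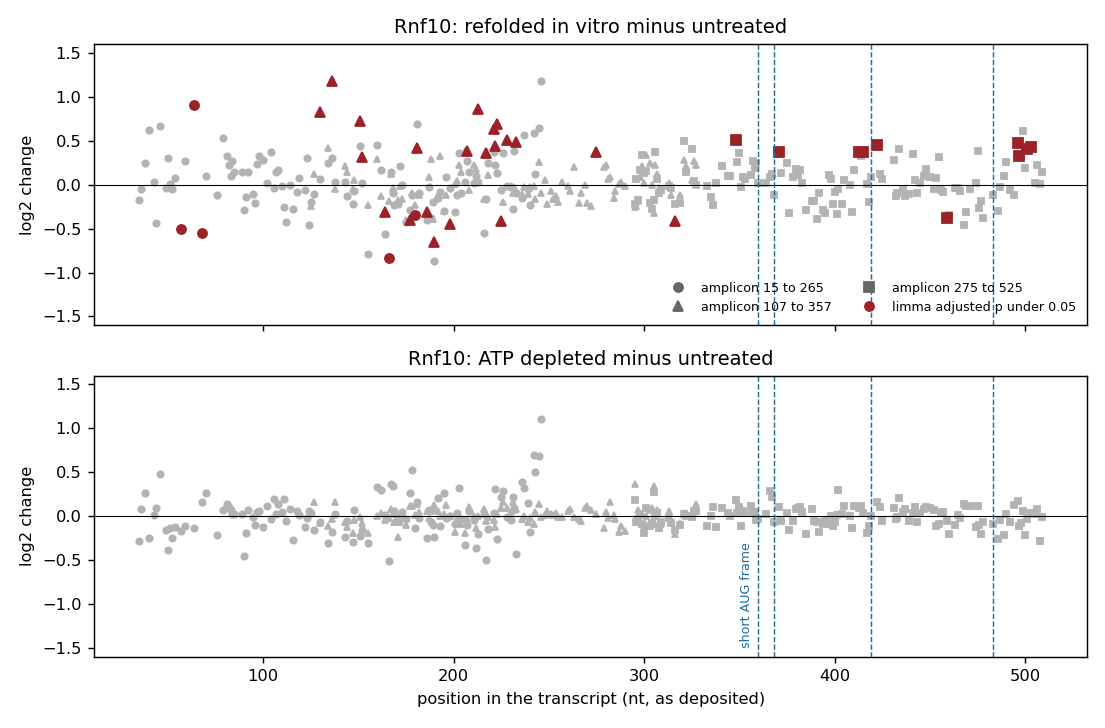
Log2 change of each tested A and C of Rnf10 (vertical axis) against position in the transcript in nt (horizontal axis), for refolded minus untreated (upper panel) and ATP-depleted minus untreated (lower panel), with marker shape giving the amplicon, red a limma adjusted p under 0.05, and dashed lines the AUGs at 360, 368, 419 and 483. The upper panel has 36 red points, 21 of them in the amplicon 107 to 357, and the lower panel has none.

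Averaged over windows of 25 nt, Ube4b fell in several stretches of its first amplicon. Of 26 Ube4b windows, 7 fell and 2 rose after refolding relative to untreated cells, and of 26 Rnf10 windows, 1 fell and 3 rose, beside 10.3% of 1305 windows that fell and 9.12% that rose over all genes. The Ube4b window 374 to 398 went from 6315 ± 282 CPM in untreated cells to 5091 ± 247, a mean log2 change of -0.36 (limma adjusted p 0.00151) in which 5 of 13 nucleotides were called lower. The next window upstream, 349 to 373, went from 9877 ± 220 to 7921 ± 312, with 7 of 16 called lower. These windows hold C393 and C365. The windows 224 to 248, 274 to 298, 424 to 440 and 639 to 663 fell by 0.25, 0.27, 0.24 and 0.28. The short end window 612 to 622 fell by 0.21 in the amplicon 395 to 645. Relative to ATP-depleted cells that window differed by -0.03 (limma adjusted p 0.707). The window 614 to 638 of the amplicon 542 to 792 differed from untreated cells by -0.04 (limma adjusted p 0.378). Where 424 to 440 was read again, in the amplicon 395 to 645, the windows 412 to 436 and 437 to 461 differed by -0.06 and -0.12 (limma adjusted p 0.323 and 0.0701).

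The Ube4b windows that rose were 249 to 273, which holds A272, and 739 to 763, just downstream of the AUG at 727. The latter went from 9050 ± 261 CPM in untreated cells and 9075 ± 313 in ATP-depleted cells to 11867 ± 157 after refolding (log2 change 0.26, limma adjusted p 0.00189). A746 in it was among the 3 strongest nucleotides of the leader on average and rose by 0.66 (limma adjusted p 0.00416). The others were A760, in the same window, with a mean of 17891 CPM over the 9 samples and a difference of 0.26 (limma adjusted p 0.132), and A522, with a mean of 17731 CPM and a rise of 0.49 (limma adjusted p 0.0241). In Rnf10 the clearest window was 200 to 224, which went from 4228 ± 196 to 6291 ± 198 CPM (0.28, limma adjusted p 0.00138), with 6 of 16 nucleotides called higher. The windows 125 to 149 and 342 to 366 rose by 0.26 and 0.16, while 175 to 199, which holds C190, fell by 0.15 (limma adjusted p 0.0391). All of the called Rnf10 windows lay outside the shallow amplicon. Rnf10 15 to 265 reads many of the same positions and did not repeat the rises. Its windows 184 to 208 and 209 to 233 differed by -0.12 and 0.04 (limma adjusted p 0.158 and 0.661). Its windows 109 to 133 and 134 to 158 differed by -0.11 and -0.015 (limma adjusted p 0.181 and 0.878). The window 159 to 183 differed by -0.10 (limma adjusted p 0.347).

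The profile was also more uneven in refolded RNA. The Gini coefficient, which is 0 when every A and C carries the same signal and approaches 1 when few carry it all, was computed per amplicon and sample. In Ube4b 207 to 457 it was 0.327, 0.300 and 0.317 in untreated cells, 0.340, 0.313 and 0.315 in ATP-depleted cells and 0.447, 0.436 and 0.420 after refolding. The refolded samples were all above the in-cell samples, which overlapped. The rise over untreated cells was 0.120 ± 0.012 (SE, limma adjusted p 6.8e-05). The other Ube4b amplicons rose by 0.0962 and 0.0845 with limma adjusted p of 5.9e-05 and 0.000156. Depth also differed between groups. In Ube4b 207 to 457 the refolded libraries held 28732, 18506 and 49486 counts against 49047, 60373 and 65888 in untreated cells. In Ube4b 542 to 792 they held 237217, 81121 and 137139 against 210667, 141188 and 125905. The part that depth plays in the Gini coefficient was not tested.

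In Rnf10 107 to 357 the Gini coefficient was 0.363, 0.360 and 0.348 in untreated cells, 0.368, 0.366 and 0.368 in ATP-depleted cells and 0.399, 0.407 and 0.408 after refolding. It rose by 0.0475 (limma adjusted p 0.000747), and Rnf10 275 to 525 rose by 0.0715 (limma adjusted p 0.00039). Rnf10 15 to 265 was not called. Its refolded minus untreated difference was 0.0357 ± 0.0256 (limma adjusted p 0.222) and the groups overlapped; it was 0.0574, 0.0397 and 0.00984 without untreated replicate 1, 2 and 3 (limma adjusted p 0.0576, 0.263 and 0.684). The 5 amplicons of 6 called higher compare with 80.1% of all 161 amplicons, so a rise in unevenness was the common outcome in the series. The series median difference was 0.0923, which the first 2 Ube4b amplicons exceeded and all 3 Rnf10 amplicons fell short of. The share of the A and C signal on the strongest nucleotides (10% of the A and C) went from 19.6% to 25.3% in Ube4b 207 to 457 and from 22.6% to 27.0% in Rnf10 107 to 357.

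**Figure D3:**
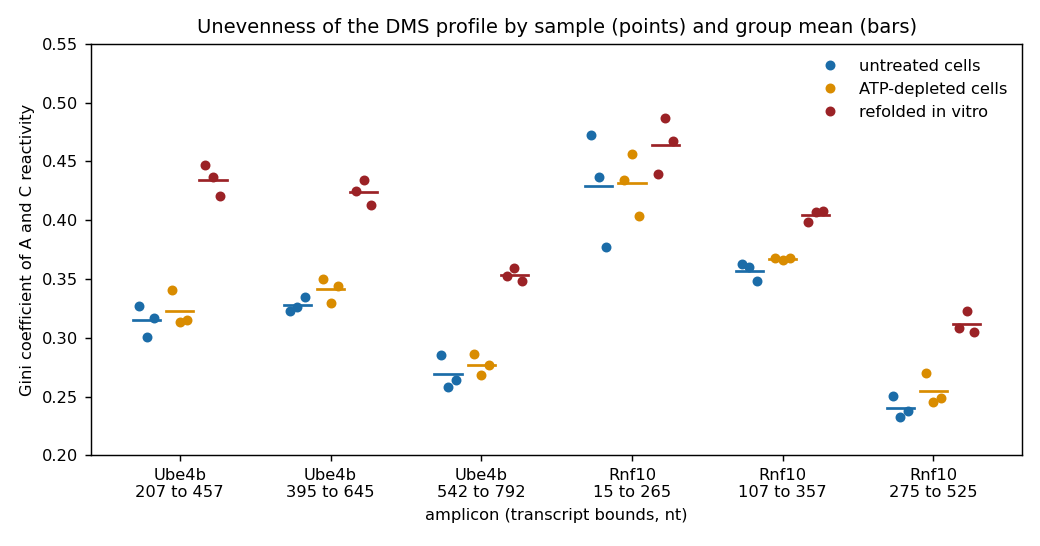
Gini coefficient of A and C reactivity (vertical axis, no unit, drawn from 0.20) in each of the 6 amplicons (horizontal axis), with one point per sample and a bar at the group mean, coloured by group. The refolded samples lie above all in-cell samples in 5 amplicons, and in Rnf10 15 to 265 the groups overlap.

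Against ATP-depleted cells, refolded RNA gave much the same number of differences. In limma 68 of 304 Ube4b readings (27 higher, 41 lower) and 34 of 367 Rnf10 readings (19 higher, 15 lower) were called, or 22.4% and 9.26%, beside 14.9% over all genes (8.31% higher and 6.56% lower). This comparison shares its refolded samples with the one against untreated cells, so these comparisons are not independent. C540 was 1.19 higher than in ATP-depleted cells (limma adjusted p 0.00064) and A136 1.22 higher (limma adjusted p 0.0073). The larger Ube4b falls here also took in C295, C357 and C301 in the amplicon 207 to 457, by 0.82, 0.79 and 0.77 (limma adjusted p 0.0211, 0.0145 and 0.0298), and all 3 were called lower against untreated cells too. C357 stood at 3656, 2706 and 4722 CPM in ATP-depleted cells and at 1026, 27 and 1372 after refolding, with 0 counts in refolded replicate 2. In Rnf10 15 to 265, C40 rose by 0.87 (limma adjusted p 0.0299) and C178 fell by 0.64 (limma adjusted p 0.033), the latter on 1 to 25 counts. In the deeper amplicon C178 differed by -0.20 (limma adjusted p 0.161). C295, C301, C40 and C178 lost their calls under 6, 6, 7 and 8 of the alternatives run. The Gini coefficient was again called higher in the same 5 amplicons, beside 78.9% of all amplicons, and 9 Ube4b and 5 Rnf10 windows were called, beside 22.2% of all windows. Without ATP-depleted replicate 1, 30 Ube4b readings (9.87%) and 17 Rnf10 readings (4.63%) were called, beside 8.47% over all genes. Without replicate 2 the counts were 16 (5.26%) and 10 (2.72%), beside 6.22%, and without replicate 3 they were 23 (7.57%) and 15 (4.09%), beside 7.7%. The Ube4b share was thus below that of all genes without ATP-depleted replicate 2 or 3. Among nucleotides whose mean reached the median, 24 Ube4b readings were higher and 8 lower (21.3%), and 10 Rnf10 readings higher and 5 lower (10.2%), beside 15.6% over all genes. That mean again includes the refolded samples, so this split cannot settle the direction either.

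ATP depletion itself changed no single nucleotide of either leader past the threshold. In limma 0 of 671 readings were called against untreated cells, beside 0.0% over all genes. At an unadjusted limma p under 0.05 there were 8 of 304 in Ube4b (2.63%) and 10 of 367 in Rnf10 (2.72%), beside 3.93% over all genes. The median absolute log2 difference over the 671 readings was 0.08, against 0.21 for refolded minus untreated. No Gini coefficient and no window of these genes was called, and the adjusted limma p of the Gini difference was 0.984 in all 6 amplicons. The Gini differences were between 0.00263 and 0.0142. These p-values do not show that ATP-depleted and untreated leaders were alike.

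The nucleotides with the smallest unadjusted p are given as values. Ube4b C230, at the start of the read region, stood at 6061, 5803 and 6551 CPM in untreated cells, at 3944, 4440 and 3295 in ATP-depleted cells and at 2179, 2776 and 1872 after refolding. Its groups lay in 3 separate ranges, and the ATP-depleted minus untreated difference was -0.40 (unadjusted limma p 0.00512, adjusted p 0.999943). Rnf10 C295 in the amplicon 107 to 357 stood at 4401, 4611 and 4279 CPM in untreated cells, at 6212, 7027 and 6605 in ATP-depleted cells and at 2946, 3041 and 3665 after refolding. These are among many readings without overlap, since the ATP-depleted and untreated samples did not overlap at 61 of 367 Rnf10 readings (16.6%), beside 12.4% over all genes. Ube4b C615 differed by -0.30 in the amplicon 395 to 645 and by -0.11 in the amplicon 542 to 792 (unadjusted limma p 0.0203 and 0.289). Rnf10 C178 differed by 0.53 in the amplicon 15 to 265 and by 0.11 in the amplicon 107 to 357 (unadjusted limma p 0.011 and 0.237).

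C295 and its neighbour C305 could be read again in the amplicon 275 to 525. There C295 stood at 2781, 3310 and 3249 CPM in untreated cells and at 3666, 3788 and 4380 in ATP-depleted cells, again without overlap. C305 stood at 5569, 5957 and 5477 CPM in untreated cells and 7978, 9151 and 7041 in ATP-depleted cells in the amplicon 107 to 357. In the amplicon 275 to 525 it stood at 5954, 6519 and 5352 against 7119, 9092 and 7505. All ATP-depleted values were above all untreated values at both positions in both amplicons, though no call was made. Samples of these groups did not overlap at 18.6% of the readings of the amplicon 107 to 357. In the amplicon 275 to 525 that share was 17.6%, beside 12.4% over all genes. For C295 the differences were 0.36 and 0.18 (unadjusted limma p 0.00348 and 0.123), and for C305 0.34 and 0.28 (unadjusted limma p 0.0126 and 0.0363). For refolded RNA minus ATP-depleted cells both positions were called in both amplicons, with C305 lower after refolding by 0.66 and 0.46 (limma adjusted p 0.00667 and 0.0299). For refolded RNA minus untreated cells, no A or C that these amplicons share was called in both.

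Positions read in overlapping amplicons show how far the values depend on the amplicon. Over the 28 A and C that Ube4b 395 to 645 and 542 to 792 share, the group mean levels correlated at 0.95 to 0.98, and the refolded minus untreated changes at 0.79. There 3 nucleotides were called in both amplicons, with the same sign, and 5 in one of them, all with the same sign in the other. Over the 14 shared by Ube4b 207 to 457 and 395 to 645, the changes correlated at 0.83 and 3 were called in both with the same sign. C413 was one of them, with rises of 0.65 and 0.58 (limma adjusted p 0.0112 and 0.0159).

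Over the 23 A and C that Rnf10 107 to 357 and 275 to 525 share, levels correlated at 0.87 to 0.90 and refolded minus untreated changes at 0.60, beside a median of 0.67 over 53 overlapping amplicon pairs of the series, of which 35 had a higher value. The ATP-depleted minus untreated differences correlated at 0.82 over these 23, beside a series median of 0.23, and 3 of the 53 pairs had a higher value. This pair was singled out after its value was seen. In the other overlaps the same differences correlated at 0.27 and -0.02 in Ube4b and at 0.28 between Rnf10 15 to 265 and 107 to 357. Both amplicons of a pair come from the same RNA samples, so this correlation holds what the samples share. Over the 70 that Rnf10 15 to 265 and 107 to 357 share, levels correlated at only 0.23 to 0.33 (Spearman 0.42 to 0.43) and changes at 0.44. No nucleotide was called in both, and 21 were called in one, 18 of them with the same sign in the other.

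No change was called at the AUGs of either leader. In Ube4b the AUG at 595 is followed by a stop codon at 604 to 606, so it opens a frame of 3 codons, and it has A at the position 3 nt upstream. Its A read 11458 ± 311 CPM in untreated cells, 10524 ± 911 in ATP-depleted cells and 11454 ± 2006 after refolding in the amplicon 395 to 645. In the amplicon 542 to 792 it read 8248 ± 838, 8722 ± 836 and 8795 ± 1589. The AUG at 727 has G both 3 nt upstream and directly downstream, and its frame had no stop up to the last read position. Its A read 9891 ± 485, 10171 ± 1113 and 11703 ± 1477 CPM, with a limma adjusted p of 0.301 for refolded minus untreated.

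In Rnf10 the AUG at 360 is followed after 3 codons by a stop at 369 to 371, and that stop overlaps the AUG at 368. The AUGs at 368 and 419 share a frame with no stop up to the last read position, and the AUG at 483 lies in another open frame. Which AUG starts the coding sequence was not determined here. The A of the AUG at 360 read 9076 ± 1188 CPM in untreated cells, 8781 ± 229 in ATP-depleted cells and 9237 ± 1219 after refolding. The A of the AUG at 368 read 10451 ± 359, 9858 ± 917 and 9397 ± 574. At 419 and 483 the untreated means were 9731 ± 1133 and 7053 ± 1093. None of the 7 readings of an AUG's A was called in any comparison.

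The simple stretches of both leaders held 75 readings of A and C, of which 2 rose and 3 fell for refolded minus untreated (6.67%). The share called was 16.3% over all genes, 25.0% in Ube4b and 9.81% in Rnf10. Most of these stretch readings were in Rnf10, and positions in overlapping amplicons count once per amplicon. The run of A in Ube4b read 6751 ± 122 CPM per A in untreated cells, 7134 ± 200 in ATP-depleted cells and 8748 ± 277 after refolding, below the median A of the gene in each group, and none of its 7 A was called. The CCU repeat of Rnf10 read 4242 ± 37, 4337 ± 147 and 3943 ± 88 CPM per C in the amplicon 107 to 357, and none of its 14 C was called. In Rnf10 15 to 265, where the repeat runs into the end of the read, 8 of its C were read and averaged 15152 ± 8372 CPM in untreated cells. The run of C at 496 to 500 in Rnf10 had 2 nucleotides called higher after refolding, the run at 186 to 190 had 2 called lower in the amplicon 107 to 357, and the Ube4b run at 612 to 616 had 1 called lower in the amplicon 395 to 645.

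The profiles followed the predicted fold to a moderate degree in all groups. The Spearman correlation of A and C reactivity with the unpaired probability from RNAfold, over the 93 A and C of Ube4b 395 to 645, averaged 0.674 in untreated cells, 0.653 in ATP-depleted cells and 0.596 after refolding. That amplicon gave the highest value of the 6, and the series median was 0.419 in untreated cells and 0.412 after refolding. Its fall on refolding was called (-0.131 on Fisher's z scale, limma adjusted p 0.0221). Rnf10 107 to 357 fell from 0.346 to 0.251 (-0.104, limma adjusted p 0.0122), and the other 4 amplicons were not called, beside 22.4% called over all amplicons. With only the 6 samples compared, Rnf10 107 to 357 kept its call (limma adjusted p 0.0424) and Ube4b 395 to 645 missed the threshold (0.0518). Rnf10 15 to 265 had the lowest values, 0.290 in untreated cells and 0.234 after refolding. Against ATP-depleted cells the refolded correlation was called lower in Rnf10 107 to 357 and Rnf10 15 to 265 (limma adjusted p 0.00418 and 0.0148), beside 24.8% called over all amplicons. Neither gene had a call for ATP-depleted against untreated cells in this measure, beside 1.24% of all amplicons.

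The genes whose mean Gini coefficient moved most like that of Ube4b over the 9 samples were Ext1, Hexim1 and Eif5, with Pearson correlations of 0.997, 0.997 and 0.995 among 68 other transcripts whose median was 0.927. For Rnf10 they were Eed, Chtop and Eif5 at 0.933, 0.929 and 0.912, beside a median of 0.832. These values rest mainly on the step between in-cell and refolded samples, which most transcripts share. The series holds 2 other genes of the list of ubiquitin and related pathway symbols, the E3 ligase Ube3a and the SUMO protease Senp3. In Ube3a 32 of 208 readings were called for refolded minus untreated (15.4%, 18 higher and 14 lower), and in Senp3 4 of 80 (5.0%, 1 higher and 3 lower), with 235 to 5756 counts per Senp3 library. Neither gene had a call for ATP-depleted against untreated cells.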

How the data were processed

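DMS mutational profiles of 161 amplicons were read in 3 groups of 3 samples. The deposited values are log2 CPM (counts scaled within each amplicon), by the values themselves: they return whole counts, after a prior count of 0.5, in 1449 of 1449 libraries (tolerance 0.0001). Per the submitters' processing notes, bcl2fastq, Bowtie2 and limma were used; no source used here states their settings, the mutation counter or the reference build. Values were turned back to CPM and then to log2(CPM + 3197), with 0.5 of the median A and C value as the added constant. Each of the 16178 A and C with a count was fitted in R 4.3.3 with limma 3.58.1, one mean per group over all 9 samples, two-sided, with Benjamini-Hochberg adjustment over all of them and a threshold of 0.05. The same fit was run on Gini coefficients (at least 10 A and C), on mean log2 values in 25-nt windows (at least 6 A and C) and on Fisher's z of the Spearman correlation with unpaired probabilities from RNAfold 2.7.2 at 37 °C. Folds are ratios of group mean CPM. The scripts were tested on simulated data. Depth per amplicon library limits the precision, and intervals between replicates cover these samples alone.

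For each gene and comparison the text names, among called nucleotides whose replicates do not overlap, the 4 largest rises and 4 largest falls at most, or the 2 smallest p where none was called, the 3 highest means, and the same positions in overlapping amplicons. C305, C413, the AUGs and the simple stretches were singled out after their values were seen, except where this rule names them. The members and lists were chosen with earlier results of these data known. Same-numbered replicates of different groups deviated together weakly at most (correlations up to 0.1), so the main fit holds no replicate block. Alternatives were other scalings, filters, fits and left-out libraries; the deposited log2 scale and the fit without Rnf10 15 to 265 were added after seeing the data. Gene symbols and loci come from RefSeq (GRCm38.p6).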

Additional observations from a re-analysis of the deposited data

Results flagged for a closer look

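Signal at G and T lies outside the comparisons above, which use A and C. In Ube4b the median G read 829.9 CPM over 211 readings and the median T read 4044 CPM over 120, as means of 9 samples. In Rnf10 the median G read 725.2 CPM over 174 readings and the median T read 3444 CPM over 94. They were singled out because such signal is present in every sample and no sample labelled as lacking DMS was analysed here to set it against. The T medians lay near the C medians of 4253 CPM in Ube4b and below that of 5083 CPM in Rnf10. Groups of 3 samples were not searched for single outlying samples.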

How the results depend on the processing

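No named nucleotide change reversed under any alternative. For refolded minus untreated, 112 of 671 readings of both genes were called as reported (16.7%, beside 16.3% over all genes). Limited to nucleotides whose mean reached the median, a smaller set, 50 were called. These were 20.0% of 150 Ube4b and 13.6% of 147 Rnf10 readings, beside 15.4%. With only the 6 samples compared, 42 were called (11.2% in Ube4b and 2.18% in Rnf10, beside 8.23%). With one library left out, 44 to 87 were called, and the share over all genes was 8.62% to 15.4%. For refolded minus ATP-depleted, 102 were called as reported (15.2%, beside 14.9% over all genes). With the same limit on the mean, 47 were called (21.3% in Ube4b and 10.2% in Rnf10, beside 15.6%). With only the 6 samples compared, 53 were called (11.8% and 4.63%, beside 9.91%). With one library left out, 26 to 89 were called, and the share over all genes was 6.22% to 14.7%. The Gini coefficient was called in 5 amplicons in both comparisons with any one library left out. It pools A and C. For refolded minus untreated, the Ube4b amplicons rose by 0.0628, 0.0453 and 0.0458 with A alone and by 0.166, 0.118 and 0.0776 with C alone. Rnf10 15 to 265 differed by -0.0444 with A alone (limma adjusted p 0.0533). With C alone, Rnf10 107 to 357 was not called against ATP-depleted cells (limma adjusted p 0.0727). Predicted pairing was called in 2 amplicons as reported for refolded minus untreated and in 1 with only the 6 samples compared. ATP-depleted minus untreated had 0 nucleotide calls under all settings run. The shared replicate numbers paired the samples weakly at most, with same-number correlations of deviations between -0.0177 and 0.1. Only between ATP-depleted and untreated samples did each correlate best with its own number, at 0.0406, 0.1 and 0.0309. With the replicate block, 85 readings were called for refolded minus untreated and 80 for refolded minus ATP-depleted. The former were 20.1% of Ube4b and 6.54% of Rnf10 readings, beside 13.5% over all genes. The latter were 17.1% and 7.63%, beside 12.3%. On the deposited log2 scale, chosen after seeing the data, 72 Ube4b and 30 Rnf10 readings were called for refolded minus untreated. These were 23.7% and 8.17%, beside 14.5% over all genes. Depth limits Rnf10 15 to 265 most. The causes of these shifts were not tested, beyond the fewer nucleotides or samples that some settings hold.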
